A study of Gallus gallus with 13 samples.

Results

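The glycolytic enzymes described here are those encoded by HK1, HK2, PFKM, PFKP, GAPDH, PGK1, ENO1, ENO2, LDHA and LDHB, measured as transcripts in primary chicken embryo fibroblasts on 13 Affymetrix chicken arrays. A probe set was taken when its gene symbol in the array annotation equalled one of these 10 symbols. This found 9 of the 10 genes, out of 13008 genes with a single symbol on the array, and PGK1 had no probe set under its own symbol. The 9 genes were covered by 16 chicken probe sets, all of which passed the filter on low signals, and GAPDH also by 4 control probe sets, which were not tested. All cultures were fibroblasts of White Leghorn embryos of day 10, held at 41.5 °C below passage 10 in a medium with insulin, zinc, 5% calf serum and 5% tryptose phosphate broth. Contact-inhibited and starved cells (3 arrays) were confluent and were then washed and given medium free of serum. Contact-inhibited cells (4 arrays) were confluent with renewed medium, so that serum was still present. Serum-starved cells (3 arrays) were growing cultures that were washed and moved to medium free of serum, and cycling cells (3 arrays) were taken in log phase in complete medium. How long cells were kept without serum is not given in the sources used here. The labels name the arrays biological replicates but not their embryos of origin, so every p-value measures the spread between these arrays, and their number limits the precision.

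Glycolysis splits glucose into pyruvate in the cytosol and yields ATP and NADH. Hexokinase traps glucose in the cell, phosphofructokinase makes the committed step, glyceraldehyde-3-phosphate dehydrogenase and enolase act in its later steps, and lactate dehydrogenase turns pyruvate into lactate and so returns NAD+ to the pathway. Several steps are served by more than 1 gene, and tissues differ in which isoenzyme they use. Growing fibroblasts are known for making lactate even in the presence of oxygen.

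Signals are probe set intensities on a linear scale, given as the mean ± SD of a group. Changes are differences of log2(signal + 16), given with their standard error, and this scale understates the change of dim genes. A change passed when its adjusted p from limma, corrected by the Benjamini-Hochberg method over all 28270 probe sets tested in that comparison, lay below 0.05. Median signals of the 13 arrays lay between 50.5 and 66.5. The lowest was that of cycling replicate 3, and the next lowest was 60.15, in cycling replicate 2. The label of the cells was borne out by 11 fibroblast markers, all of which passed the filter, with summed signals of 116868 to 122243 in contact-inhibited and starved, 104719 to 111597 in contact-inhibited, 112558 to 122082 in serum-starved and 97096 to 106677 in cycling arrays. Of these 11 markers, 6, 3 and 4 were higher than in cycling cells in contact-inhibited and starved, contact-inhibited and serum-starved cells. The numbers lower were 0, 1 (FN1) and 0. Over all genes 18.6%, 18.7% and 11% were higher, so the markers were present in every group but not constant. The summed signal of 13 striated muscle markers differed between the groups. It was 6297 to 6387, 4300 to 11234 and 3294 to 4281 in the same 3 arrested groups. In cycling arrays it was 46757 to 82015, mostly from the actin gene ACTC1. Of the 10 that passed the filter, 4, 5 and 5 were lower than in cycling cells and 0 higher. These counts include MYH15, which passed the filter only through the cycling arrays, so its calls as lower carry no weight. It averaged 7.21, 7.33 and 50.4 in contact-inhibited and starved, contact-inhibited and serum-starved arrays and 767.5 in cycling arrays. Over all genes 16.1%, 21.9% and 9.71% were lower. MYOD1, MYOG, MYF5, DES and TNNT3 passed in none of these comparisons. MYL1 and TNNT2 stayed under the filter on every array. Cycling replicate 3 had the highest actin 3'/5' signal ratio, 2.41, against 1.27 to 1.89 on the other 12 arrays. The mean log2 level of 22 probe sets of the W chromosome, which female cells carry, was 6.11 to 6.16 in contact-inhibited and starved arrays, 7.19 to 7.31 in the contact-inhibited arrays other than replicate 1 (6.28), 6.66 in serum-starved replicate 1 and 5.98 and 6.04 in replicates 2 and 3, and 7.07 to 7.12 in cycling arrays. Every array of both starved groups lay below the cycling arrays in this W-linked level, so it cannot be told apart from serum removal. Within groups it varied mainly through contact-inhibited replicate 1 and serum-starved replicate 1. A fit with it as a covariate rests largely on those arrays and does not undo the confounding. The W-linked gene HINTW alone had signals of 84.3, 1311, 1188 and 1197 in contact-inhibited and 2646, 2835 and 3358 in cycling arrays. It had 0 to 428 in both starved groups. By this gene the contact-inhibited arrays also lay below the cycling arrays, and its part in the results was not tested. The part of the muscle markers in the results below was not tested. Calls that ended without one array, or with the W-linked level as a covariate, are named beside the result.

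The members did not move together. In contact-inhibited cells HK1, PFKP, ENO2 and LDHA were higher than in cycling cells, and PFKM and LDHB were lower. In contact-inhibited and starved cells ENO2 and LDHA were higher and PFKM and LDHB lower. Serum-starved cells had higher ENO2 and LDHA. HK2, GAPDH and ENO1 passed in none of the 7 comparisons made, and PFKM passed only with the brighter of its probe sets.

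Against cycling cells, 4 of 9 members passed in contact-inhibited and starved cells, where 34.7% of the 11498 genes tested did. In contact-inhibited cells 6 of 9 passed, against 40.5% of all genes, and in serum-starved cells 2 of 9, against 20.7%. By direction, 2 members were higher and 2 lower in contact-inhibited and starved cells (18.6% and 16.1% of all genes), 4 higher and 2 lower in contact-inhibited cells (18.7% and 21.9%), and 2 higher and 0 lower in serum-starved cells (11% and 9.71%). With the W-linked level as a covariate the counts were 1, 7 and 1. Without serum-starved replicate 3 the serum-starved count was 0. The shares of all genes with the covariate or without that array are not given here, so these shifts are not read as particular to the members. The median log2 change of the 9 members was 0.05, 0.34 and -0.03 in the 3 comparisons, beside 0.02, 0.02 and 0.01 over all genes. An F test over the 4 groups passed for 5 members (HK1, PFKP, ENO2, LDHA and LDHB), and for 47.2% of all genes. The 3 comparisons share their cycling arrays, and the counts are a description from which nothing particular to the members is read. RNA came from whole cultures, so fewer cells of a type and less RNA per cell cannot be told apart.

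**Figure D1:**
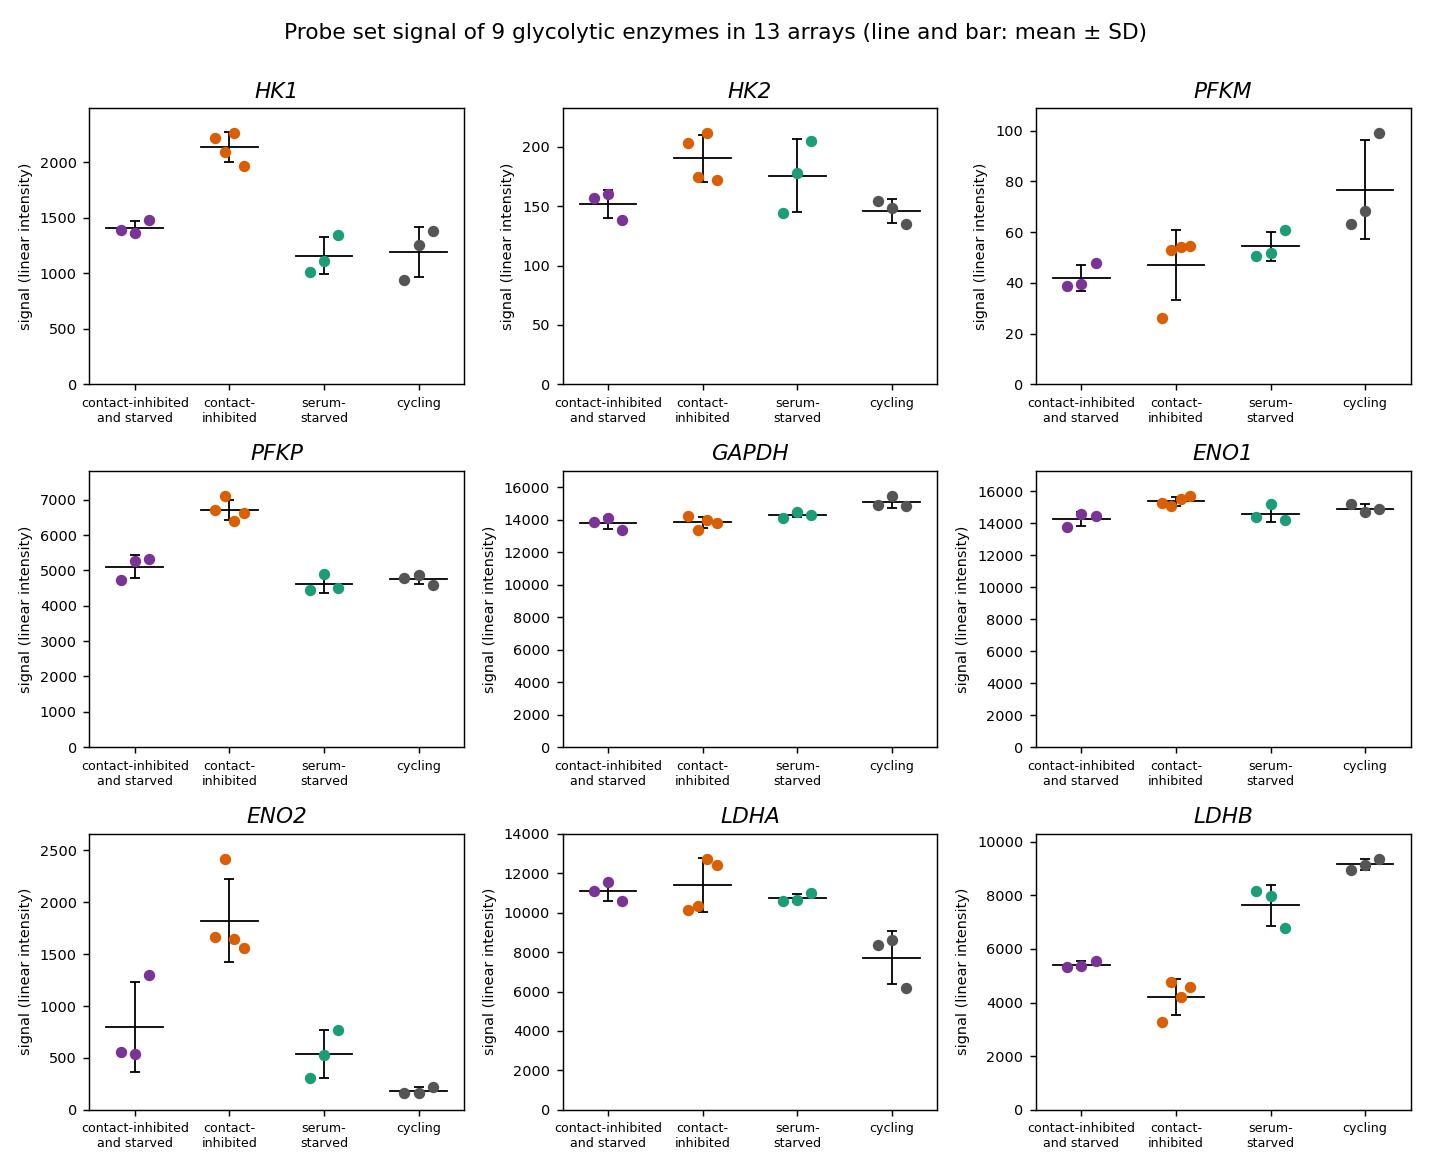
Signal (linear intensity) of the brightest tested probe set of each of the 9 enzymes in every array, by culture group. A line and bar mark the mean ± SD. ENO2 averaged 1823 in contact-inhibited and 183 in cycling arrays, LDHB averaged 4201 and 9148 in the same groups, and GAPDH and ENO1 stayed within narrow bands.

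Hexokinases phosphorylate glucose on entry. HK1, the form that most vertebrate tissues express, was read by 3 probe sets. The signals of the brightest were 1389, 1358 and 1481 in contact-inhibited and starved arrays, 2218, 2093, 2258 and 1961 in contact-inhibited arrays, 1015, 1114 and 1343 in serum-starved arrays and 941, 1255 and 1378 in cycling arrays. Each contact-inhibited array lay above each array of the other groups, and the other 3 groups adjoined or overlapped. HK1 averaged 2133 ± 135 in contact-inhibited cells (SD, n = 4) and 1191 ± 225 in cycling cells (SD, n = 3), a log2 change of 0.85 ± 0.13 (adjusted p = 0.000325). The other probe sets also passed there, with log2 changes of 0.69 ± 0.16 and 0.84 ± 0.14. On the second of these, contact-inhibited replicate 1 (1425) lay below contact-inhibited and starved replicate 3 (1478). There the contact-inhibited and starved arrays all lay above the cycling arrays, by 0.40 ± 0.15, which did not pass (adjusted p = 0.0577). On the brightest probe set the order of the levels was contact-inhibited, contact-inhibited and starved, cycling, serum-starved. Past the highest group no neighbours in that order passed a test. Removing serum from confluent cells went with lower HK1, by -0.59 ± 0.13 in contact-inhibited and starved against contact-inhibited cells (adjusted p = 0.00848). Serum-starved cells also had less than contact-inhibited cells, by -0.88 ± 0.13 (adjusted p = 0.000491). The changes against cycling cells were 0.26 ± 0.14 in contact-inhibited and starved cells (adjusted p = 0.200) and -0.03 ± 0.14 in serum-starved cells (adjusted p = 0.905), and neither passed. In the 26 alternative settings the contact-inhibited increase over cycling cells passed each time, at 0.69 to 1.00.

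HK2, the hexokinase known in mammals as the inducible form of muscle and fat, was dimmer and passed in no comparison. It had signals of 157, 161 and 138 in contact-inhibited and starved, 203, 175, 211 and 172 in contact-inhibited, 145, 178 and 205 in serum-starved and 155, 149 and 135 in cycling arrays. The contact-inhibited arrays all lay above the cycling arrays, by 0.34 ± 0.14 on the log2 scale, with an adjusted p of 0.0712. Its changes in the other arrested groups against cycling cells were 0.05 ± 0.15 in contact-inhibited and starved cells and 0.23 ± 0.15 in serum-starved cells (adjusted p = 0.836 and 0.321).

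Phosphofructokinase is a tetramer of subunits from PFKP (first named in platelets), PFKM (muscle) and PFKL (liver). PFKP had 3 probe sets, all higher in contact-inhibited than in cycling cells. The brightest gave 4736, 5266 and 5327 in contact-inhibited and starved, 6702, 7104, 6406 and 6623 in contact-inhibited, 4445, 4902 and 4492 in serum-starved and 4788, 4866 and 4589 in cycling arrays. Again each contact-inhibited array lay above all others, and the starved groups overlapped the cycling arrays. The means were 6709 ± 292 in contact-inhibited cells (SD, n = 4) and 4748 ± 143 in cycling cells (SD, n = 3), a log2 change of 0.50 ± 0.07 (adjusted p = 0.000147) that passed in all 26 alternatives. The other probe sets gave larger changes, 1.68 ± 0.34 (adjusted p = 0.0017) and 1.23 ± 0.17 (adjusted p = 0.00014). On the dimmest of them contact-inhibited replicate 1 had a signal of 367, against 1408, 734 and 713 in replicates 2 to 4, and cycling replicate 3 had 141, against 248 and 282 in replicates 1 and 2.

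PFKP was lower in both groups without serum than in contact-inhibited cells. The change was -0.39 ± 0.07 in contact-inhibited and starved cells (adjusted p = 0.00201) and -0.54 ± 0.07 in serum-starved cells (adjusted p = 0.000158). Against cycling cells the brightest probe set changed by 0.10 ± 0.08 in contact-inhibited and starved cells (adjusted p = 0.328) and by -0.04 ± 0.08 in serum-starved cells (adjusted p = 0.755). The probe sets disagreed on contact-inhibited and starved against cycling cells: the one of middle brightness gave 0.67 ± 0.19 there and passed (adjusted p = 0.0158), with signals of 2683, 2932 and 2460 against 2090, 2007 and 1130. In the mean of all probe sets PFKP in serum-starved cells turned to 0.28, without passing.

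In contact-inhibited against cycling cells PFKM went the other way from PFKP, at signals near the filter. The brighter of its 2 probe sets had 38.7, 39.4 and 47.8 in contact-inhibited and starved, 26.3, 53.0, 54.0 and 54.6 in contact-inhibited, 50.6, 51.6 and 60.9 in serum-starved and 63.1, 68.4 and 98.9 in cycling arrays. All 10 arrested arrays lay below the 3 cycling arrays. The change passed in contact-inhibited and starved cells, at -0.66 ± 0.20 (adjusted p = 0.0241), and in contact-inhibited cells, at -0.57 ± 0.19 (adjusted p = 0.0309). It was -0.38 ± 0.20 in serum-starved cells, with an adjusted p of 0.224. Without cycling replicate 3 neither call passed (-0.50 and -0.41, adjusted p = 0.0858 and 0.126). The first also ended without contact-inhibited and starved replicate 1 or 2 (adjusted p = 0.0752 and 0.0736) and with the W-linked covariate (-0.21, adjusted p = 0.636), and the second without contact-inhibited replicate 1 (-0.39, adjusted p = 0.0567). The other PFKM probe set had signals of 39.7 to 60.0 over all arrays and log2 changes of -0.22, -0.20 and -0.22 in the 3 arrested groups, none of which passed. PFKM encodes the muscle subunit. Of the striated muscle markers described above, ACTC1, MYL4 and TNNC1 were likewise lower in all 3 arrested groups. MYH15 was too, but it passed the filter only through the cycling arrays. ACTA1 passed, lower, in contact-inhibited and in serum-starved cells only, and MYOD1, MYOG, MYF5, DES and TNNT3 passed in none. The part of the muscle markers in this result was not tested.

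GAPDH, which makes the NADH of glycolysis and is often used as a loading control, varied little. Its brightest tested probe set had signals of 13852, 14122 and 13390 in contact-inhibited and starved and 14233, 13403, 13963 and 13816 in contact-inhibited arrays. It had 14141, 14480 and 14329 in serum-starved and 14923, 15463 and 14858 in cycling arrays. The 10 arrested arrays all lay below the cycling arrays, by -0.13 ± 0.05, -0.12 ± 0.05 and -0.07 ± 0.05 on the log2 scale (adjusted p = 0.0633, 0.0539 and 0.336), so no comparison passed. The first 2 changes passed in 4 and 7 of the 26 alternatives, and the third in 0. With each array centred on its median, the first 2 became -0.23 and -0.24 and passed (adjusted p = 0.0234 and 0.0108). That centring moves the median of all genes by -0.10 and -0.12 in these comparisons. The other tested GAPDH probe set changed by -0.15, -0.14 and -0.04 and did not pass, and there the serum-starved arrays overlapped the cycling arrays. The 4 control probe sets of GAPDH ranged from 11221 to 16906 over the 13 arrays. On each of them some arrested arrays lay within or above the range of the cycling arrays. Their 3'/5' ratio was 0.986 to 1.33, highest in cycling replicate 3.

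Phosphoglycerate kinase, the enzyme that makes the first ATP of the later steps, was not found as PGK1. The array names a probe set PGK2, and RefSeq lists PGK1 among the synonyms of that gene. Members were matched by exact symbol only, while genes of the other lists were also matched through synonyms. For that reason PGK2 was described but not counted as a member. It had signals of 8423, 8769 and 8469 in contact-inhibited and starved, 10036, 9477, 8717 and 9163 in contact-inhibited, 7581, 9909 and 9454 in serum-starved and 10163, 10129 and 8669 in cycling arrays. Every arrested group overlapped the cycling arrays, and PGK2 passed in none of the 7 comparisons, with changes against cycling cells of -0.17 ± 0.10, -0.04 ± 0.09 and -0.11 ± 0.10.

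The enolases split sharply. ENO1, the form found in most tissues, had signals of 13786, 14578 and 14427 in contact-inhibited and starved, 15258, 15060, 15531 and 15697 in contact-inhibited, 14408, 15185 and 14198 in serum-starved and 15221, 14680 and 14863 in cycling arrays. Its changes against cycling cells were -0.07 ± 0.05, 0.04 ± 0.05 and -0.03 ± 0.05 (adjusted p = 0.355, 0.505 and 0.715). The other ENO1 probe set gave 0.15, 0.25 and 0.09, and none passed; there cycling replicate 3 had 7941, against 11301 and 11246 in replicates 1 and 2.

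ENO2, the enolase that marks neurons in adult vertebrates, showed the largest change of any member, and was read by only 1 probe set. Its signals were 562, 537 and 1300 in contact-inhibited and starved, 1670, 2419, 1642 and 1560 in contact-inhibited, 308, 530 and 769 in serum-starved and 165, 163 and 221 in cycling arrays. Each of the 10 arrested arrays exceeded each cycling array, the contact-inhibited arrays were highest of all, and the starved groups overlapped each other. ENO2 averaged 800 ± 434 in contact-inhibited and starved, 1823 ± 400 in contact-inhibited, 535 ± 231 in serum-starved and 183 ± 33 in cycling cells (SD, n = 3, 4, 3 and 3). The log2 changes against cycling cells were 1.93 ± 0.34 in contact-inhibited and starved cells (adjusted p = 0.00102), 3.20 ± 0.32 in contact-inhibited cells (adjusted p = 8.27e-06) and 1.39 ± 0.34 in serum-starved cells (adjusted p = 0.0140). On that scale ENO2 was 9.19-fold higher in contact-inhibited cells, and this change passed in all 26 alternatives, at 2.92 to 3.37. The serum-starved increase ended without serum-starved replicate 3 (1.09, adjusted p = 0.0770) and with the W-linked covariate (1.06, adjusted p = 0.211), and that of contact-inhibited and starved cells with the covariate (1.56, adjusted p = 0.0672).

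In both starved groups ENO2 was lower than in contact-inhibited cells. The change was -1.27 ± 0.32 in contact-inhibited and starved cells (adjusted p = 0.0151) and -1.81 ± 0.32 in serum-starved cells (adjusted p = 0.00147). The first call ended without contact-inhibited and starved replicate 1 or 2 (adjusted p = 0.0778 and 0.0805); replicate 3, at 1300, lay far above both. Contact-inhibited and starved cells did not pass against serum-starved cells (0.53 ± 0.34, adjusted p = 0.568). Of 6 melanocyte and neural markers measured, the summed signal was 299 to 348 in contact-inhibited and starved, 297 to 366 in contact-inhibited, 358 to 398 in serum-starved and 317 to 422 in cycling arrays. The neural genes TUBB3, ELAVL4 and SOX10 passed in no arrested group against cycling cells. In contact-inhibited and starved, contact-inhibited and serum-starved cells the log2 changes were 0.03, -0.26 and 0.08 for TUBB3, 0.54, 0.16 and 0.49 for ELAVL4 and -0.08, -0.15 and 0.18 for SOX10. The part of neural cells in the ENO2 result was not tested.

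**Figure D2:**
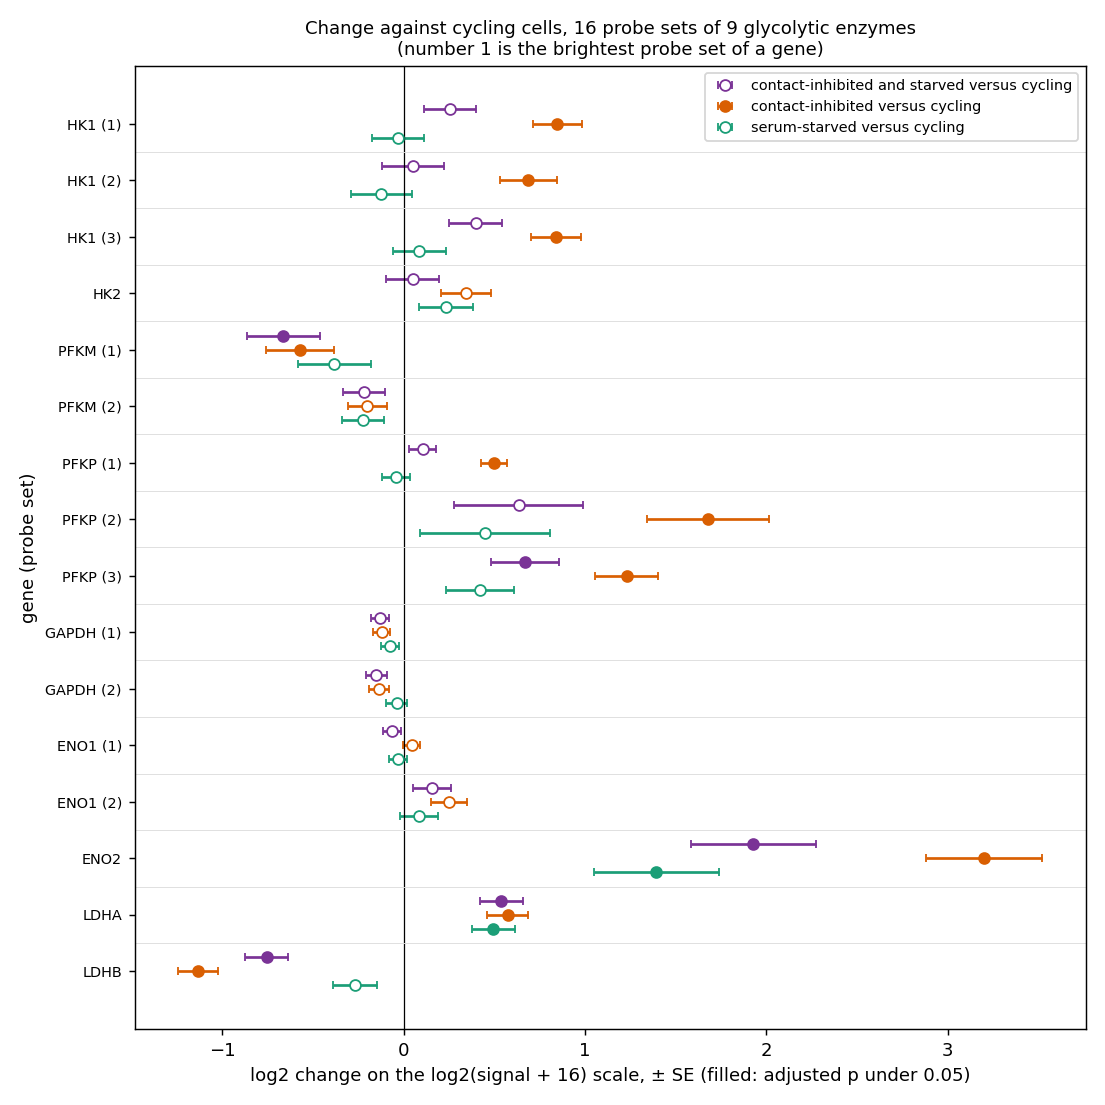
Log2 change ± SE against cycling cells of the 16 probe sets of the 9 enzymes, one row per probe set and one colour per arrested group, filled where the adjusted p was under 0.05. ENO2 lies farthest to the right in contact-inhibited cells (3.20), LDHB farthest to the left (-1.13), and the 3 PFKP probe sets share a direction in contact-inhibited cells but range from 0.50 to 1.68.

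Lactate dehydrogenase is a tetramer of LDHA (M, from muscle) and LDHB (H, from heart) subunits; LDHA-rich forms favour the making of lactate and LDHB-rich forms its use. LDHA, like LDHB read by only 1 probe set, was higher in all 3 arrested groups. Its signals were 11096, 11583 and 10610 in contact-inhibited and starved, 10120, 10358, 12739 and 12427 in contact-inhibited, 10596, 10667 and 10982 in serum-starved and 8368, 8598 and 6168 in cycling arrays. All 10 arrested arrays lay above the 3 cycling arrays, and the arrested groups overlapped. The means were 11097 ± 486, 11411 ± 1363 and 10748 ± 206 in the 3 arrested groups and 7711 ± 1342 in cycling cells (SD, n = 3, 4, 3 and 3). The log2 changes were 0.54 ± 0.12 in contact-inhibited and starved cells (adjusted p = 0.00449), 0.57 ± 0.11 in contact-inhibited cells (adjusted p = 0.00151) and 0.49 ± 0.12 in serum-starved cells (adjusted p = 0.0131). The first 2 passed in all 26 alternatives, at 0.39 to 0.70 and 0.42 to 0.66. The serum-starved increase ended without serum-starved replicate 3 (0.48, adjusted p = 0.0523) and with only the compared arrays in the fit (0.49, adjusted p = 0.0532). The arrested groups did not pass against each other for LDHA, with differences of -0.03, 0.05 and -0.08, each ± 0.11 or 0.12.

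LDHB was lower in confluent cells, with and without serum. It had signals of 5330, 5343 and 5560 in contact-inhibited and starved, 3271, 4750, 4208 and 4576 in contact-inhibited, 8143, 7956 and 6761 in serum-starved and 8959, 9129 and 9357 in cycling arrays. The 4 groups did not overlap, and their order was cycling, serum-starved, contact-inhibited and starved, contact-inhibited. LDHB averaged 5411 ± 129, 4201 ± 660 and 7620 ± 750 in the 3 arrested groups and 9148 ± 200 in cycling cells (SD, n = 3, 4, 3 and 3). The log2 change was -0.76 ± 0.12 in contact-inhibited and starved cells (adjusted p = 0.000442) and -1.13 ± 0.11 in contact-inhibited cells (adjusted p = 7.21e-06), and the change in contact-inhibited cells passed in all 26 alternatives. With the W-linked covariate the change of contact-inhibited and starved cells was -0.37 and did not pass (adjusted p = 0.0593). Serum-starved cells had -0.27 ± 0.12 and did not pass (adjusted p = 0.151), except with array weights or without contact-inhibited replicate 1 (adjusted p = 0.0298 and 0.0277). Some striated muscle markers (ACTC1, MYL4 and TNNC1) were also lower in all 3 arrested groups than in cycling cells, while others passed in none. MYH15 was lower too, but passed the filter only through the cycling arrays. The part of the muscle markers in the LDHB result was not tested.

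Between arrested groups LDHB followed the reverse of ENO2, HK1 and PFKP. It was higher in serum-starved than in contact-inhibited cells by 0.87 ± 0.11 (adjusted p = 0.000137). It was higher in contact-inhibited and starved than in contact-inhibited cells by 0.38 ± 0.11 (adjusted p = 0.0334), a call that ended without any one of the contact-inhibited and starved replicates (adjusted p = 0.0832, 0.0849 and 0.103) and without contact-inhibited replicate 3 (adjusted p = 0.0638). Quantile normalization (0.0665), eBayes without trend (0.0687) and the compared arrays alone (0.0549) also ended it, as adjusted p. In contact-inhibited and starved against serum-starved cells LDHB changed by -0.49 ± 0.12 with an adjusted p of 0.0772, which became 0.00678 without contact-inhibited replicate 1.

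Counted over members, contact-inhibited and starved against contact-inhibited cells gave 1 higher (LDHB, where 13.5% of all genes were higher) and 3 lower (HK1, PFKP and ENO2, where 7.34% were lower), 4 of 9 in all where 20.9% of all genes passed. The same genes in the same directions passed in serum-starved against contact-inhibited cells, 4 of 9 where 23.7% of all genes passed (15.1% higher and 8.6% lower). These comparisons share the contact-inhibited arrays. Contact-inhibited and starved against serum-starved cells gave 0 of 9 by limma, where 1.46% of all genes passed; at an unadjusted p under 0.05 only LDHB did. Without contact-inhibited and starved replicate 1 or 2, the first of these counts was 2, and the shares of all genes in those fits are not given here.

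The design also allows the effect of serum removal to be compared between confluent and growing cultures. This interaction, the change from starvation in confluent cells minus that in growing cells, passed for 3 of 9 members, where 14.2% of all genes passed (8.87% higher and 5.33% lower). ENO2 had -2.67 ± 0.47 (adjusted p = 0.00317): it was lower without serum in confluent cells (-1.27) and higher without serum in growing cells (1.39). It passed in all 25 alternatives that gave a value. LDHB had 0.65 ± 0.16 (adjusted p = 0.0237), with 0.38 in confluent and -0.27 in growing cells, and passed in 20 of 25; it ended without any one contact-inhibited and starved replicate (adjusted p = 0.0510 to 0.0540) and without serum-starved replicate 3 (adjusted p = 0.0670). On its brightest probe set PFKP had -0.35 ± 0.10 (adjusted p = 0.0467), with -0.39 in confluent and -0.04 in growing cells, and passed in 8 of 25. With the replicate number as a block its adjusted p was 0.0803. It ended without any single array other than contact-inhibited replicate 1 (adjusted p = 0.0511 to 0.122). The other PFKP probe sets gave interactions of -0.98 ± 0.26 and -1.49 ± 0.49 (adjusted p = 0.0268 and 0.0694). Their changes in growing cells were 0.42 and 0.45, neither of which passed, so the size of the interaction and the sign in growing cells depended on the probe set. HK1 and LDHA had interactions of -0.56 ± 0.20 and -0.53 ± 0.16 that did not pass (adjusted p = 0.0898 and 0.0574).

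The isoenzyme pairs were also read within each array, as the difference of the log2 values of both genes. Probe sets differ in their own scale, so only the change of this difference between groups is read, and not its size. The LDHA minus LDHB difference was 1.06, 1.11 and 0.93 in contact-inhibited and starved, 1.62, 1.12, 1.59 and 1.44 in contact-inhibited, 0.38, 0.42 and 0.70 in serum-starved and -0.10, -0.09 and -0.60 in cycling arrays. No arrested array reached into the cycling range, and the mean shifts were 1.29, 1.71 and 0.76. The ENO2 minus ENO1 difference shifted by 1.99, 3.16 and 1.43, again with no overlap between arrested and cycling arrays. The PFKP minus PFKM difference shifted by 0.77 and 1.07 without overlap in both confluent groups and by 0.34 with overlap in serum-starved cells. The HK2 minus HK1 difference shifted by -0.50 without overlap in contact-inhibited cells, and by -0.21 and 0.26 with overlap in contact-inhibited and starved and in serum-starved cells. The exact two-sided permutation tests over arrays gave their smallest possible p wherever the groups did not overlap, 0.1 for 3 against 3 arrays and 0.0571 for 4 against 3, so this test, which uses only the arrays of the 2 groups compared, cannot reach 0.05. After Benjamini-Hochberg adjustment over the 12 tests the exact p of the non-overlapping cases was 0.133. How often other gene pairs show no overlap is not given here. The pairs reuse the values of members tested above, so they add no separate support.

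**Figure D3:**
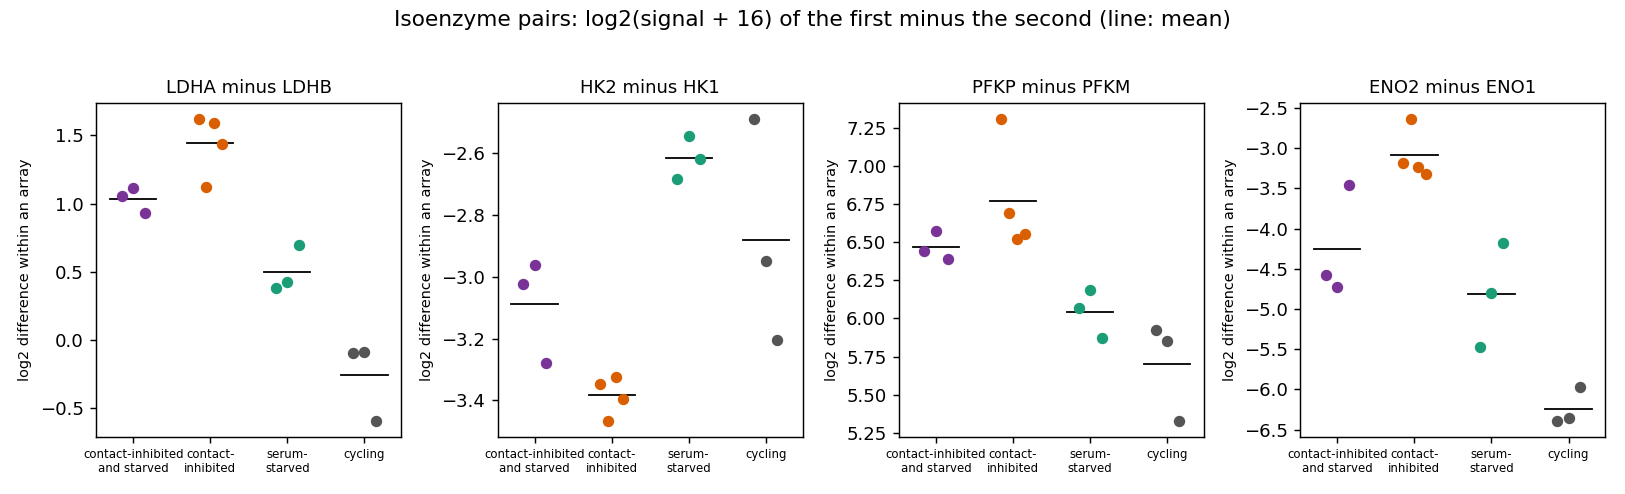
Within-array difference of log2(signal + 16) between the isoenzymes of a step, by culture group, with a line at the group mean and axes that do not start at 0. For LDHA minus LDHB every arrested array lies above the cycling arrays (0.38 to 1.62 against -0.60 to -0.09), while for HK2 minus HK1 the serum-starved arrays lie within the cycling range.

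Over the 13 arrays, which include the group differences described above, HK1, PFKP and ENO2 varied together and opposite to LDHB. Pearson's r on the log2 values was 0.89 between HK1 and PFKP, 0.85 between HK1 and ENO2 and 0.82 between PFKP and ENO2, and it was -0.88 between ENO2 and LDHB. The correlation of LDHA with LDHB was -0.64, and that of ENO1 with ENO2 was 0.29. The genes whose profile was most like a member's over these arrays were MID1IP1 for HK1 (r = 0.96), LHFPL5 for PFKP (r = 0.97), SEC24D for ENO2 (r = 0.97), ARHGEF7L for LDHA (r = 0.96) and EIF5A2 for LDHB (r = 0.99). For HK2, PFKM, GAPDH and ENO1 they were MEF2C (r = 0.88), DPP9 (r = 0.94), TMEM104 (r = 0.93) and APOBEC2 (r = 0.89). These values describe arrays that fall into 4 groups, and they carry no test.

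Of the other glycolytic enzymes, 8 of 14 listed genes were on the array, and PFKL and PGAM1 were lower in all 3 arrested groups. In contact-inhibited and starved cells 1 of 8 was higher (BPGM) and 3 were lower (ALDOC, PFKL and PGAM1), and in contact-inhibited and in serum-starved cells 0 were higher and 2 lower (PFKL and PGAM1). Over all genes 16.1%, 21.9% and 9.71% were lower in these comparisons and 18.6%, 18.7% and 11% higher, so that 2 of 8 lower in contact-inhibited cells is near the share of all genes. The median log2 changes of the list were -0.13, 0.06 and -0.07. PGAM1, the mutase between phosphoglycerate kinase and enolase, had signals of 5257, 5395 and 5094 in contact-inhibited and starved, 6381, 6399, 5865 and 5906 in contact-inhibited, 5893, 6234 and 6313 in serum-starved and 7172, 8645 and 8688 in cycling arrays. Every arrested array lay below the cycling arrays, and the changes were -0.63 ± 0.08, -0.41 ± 0.08 and -0.40 ± 0.08 (adjusted p = 0.000102, 0.00121 and 0.00482). PFKL, the liver subunit, was dimmer, at -1.21 ± 0.23, -0.63 ± 0.22 and -0.88 ± 0.23 (adjusted p = 0.00175, 0.038 and 0.0205), with the highest signal, 364, in cycling replicate 3. Without that array its change in contact-inhibited and in serum-starved cells did not pass (adjusted p = 0.169 and 0.0586). In serum-starved cells it also ended without serum-starved replicate 2 or 3 (adjusted p = 0.0587 and 0.0677). In contact-inhibited cells, where one array overlapped the cycling arrays, it also ended without contact-inhibited replicate 2, 3 or 4, cycling replicate 2, serum-starved replicate 2 or 3 or contact-inhibited and starved replicate 1 (adjusted p = 0.0502 to 0.0937). BPGM, which makes a side product of glycolysis known for its role in red cells, had 2198 ± 108 in contact-inhibited and starved and 1241 ± 100 in cycling cells (SD, n = 3 each; limma adjusted p = 0.0153), a change that ended with the W-linked covariate (adjusted p = 0.176) and without contact-inhibited and starved replicate 3. GPI, TPI1, HKDC1 and the gene that the array names PKLR, to which RefSeq gives the synonym PKM, passed in no arrested group against cycling cells.

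Among transport genes for glucose and lactate, those that passed in all 3 arrested groups were SLC16A3, BSG and SLC2A1, all higher. Of 14 listed genes on the array, 11 passed the filter. Against cycling cells 4 were higher and 1 lower (SLC2A12) in contact-inhibited and starved cells, 5 higher and 0 lower in contact-inhibited cells, and 3 higher and 0 lower in serum-starved cells. Over all genes 18.6%, 18.7% and 11% were higher and 16.1%, 21.9% and 9.71% lower in the same comparisons, and nothing particular to the list is read from its counts. The medians were 0.17, 0.45 and 0.06, beside the all-gene medians of 0.02, 0.02 and 0.01 given above. SLC16A3 is a monocarboxylate carrier known for lactate export, BSG is the chaperone of such carriers, and SLC2A1 is the basal glucose carrier.

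SLC16A3 had signals of 2270, 2425 and 2120 in contact-inhibited and starved, 3826, 3508, 3254 and 3356 in contact-inhibited, 1745, 2372 and 2303 in serum-starved and 1478, 1492 and 1120 in cycling arrays. Its changes were 0.74 ± 0.14, 1.35 ± 0.13 and 0.64 ± 0.14 (adjusted p = 0.0015, 5.82e-06 and 0.00675); the first and the third ended with the W-linked covariate (adjusted p = 0.122 and 0.198). BSG averaged 4976 ± 162, 7862 ± 377 and 5739 ± 755 in the 3 arrested groups and 3232 ± 163 in cycling cells (SD, n = 3, 4, 3 and 3), with changes of 0.62, 1.28 and 0.82, each ± 0.09. Like ENO2, PFKP and HK1, both genes were lower in contact-inhibited and starved than in contact-inhibited cells, by -0.61 ± 0.13 for SLC16A3 and -0.66 ± 0.09 for BSG (adjusted p = 0.00557 and 0.000205). Both also passed for the interaction, at -1.26 ± 0.19 and -1.47 ± 0.13 (adjusted p = 0.0012 and 1.46e-05). SLC2A1 changed by 0.42 ± 0.14, 0.63 ± 0.13 and 0.46 ± 0.14 (adjusted p = 0.0357, 0.00211 and 0.0364), and a contact-inhibited and starved array overlapped the cycling arrays. Without cycling replicate 3 its changes in contact-inhibited and starved and in serum-starved cells did not pass (adjusted p = 0.132 and 0.122). The first also ended without cycling replicate 1 or contact-inhibited and starved replicate 1 or 2 (adjusted p = 0.068 to 0.145). The second also ended without cycling replicate 1, any one serum-starved array, contact-inhibited replicate 2 or 3 or contact-inhibited and starved replicate 2 (adjusted p = 0.0502 to 0.149), and both ended with the W-linked covariate (adjusted p = 0.188 and 0.161). SLC2A14, to which RefSeq gives the synonym SLC2A3, and SLC2A6 were higher in contact-inhibited cells (0.87 ± 0.19 and 0.45 ± 0.11), and SLC2A8 in contact-inhibited and starved cells (0.38 ± 0.11, not passed without contact-inhibited and starved replicate 3, adjusted p = 0.0636). SLC2A12, at -0.43 ± 0.13, ended without any one contact-inhibited and starved array or cycling replicate 1 or 3 (adjusted p = 0.0547 to 0.0935).

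**Figure D4:**
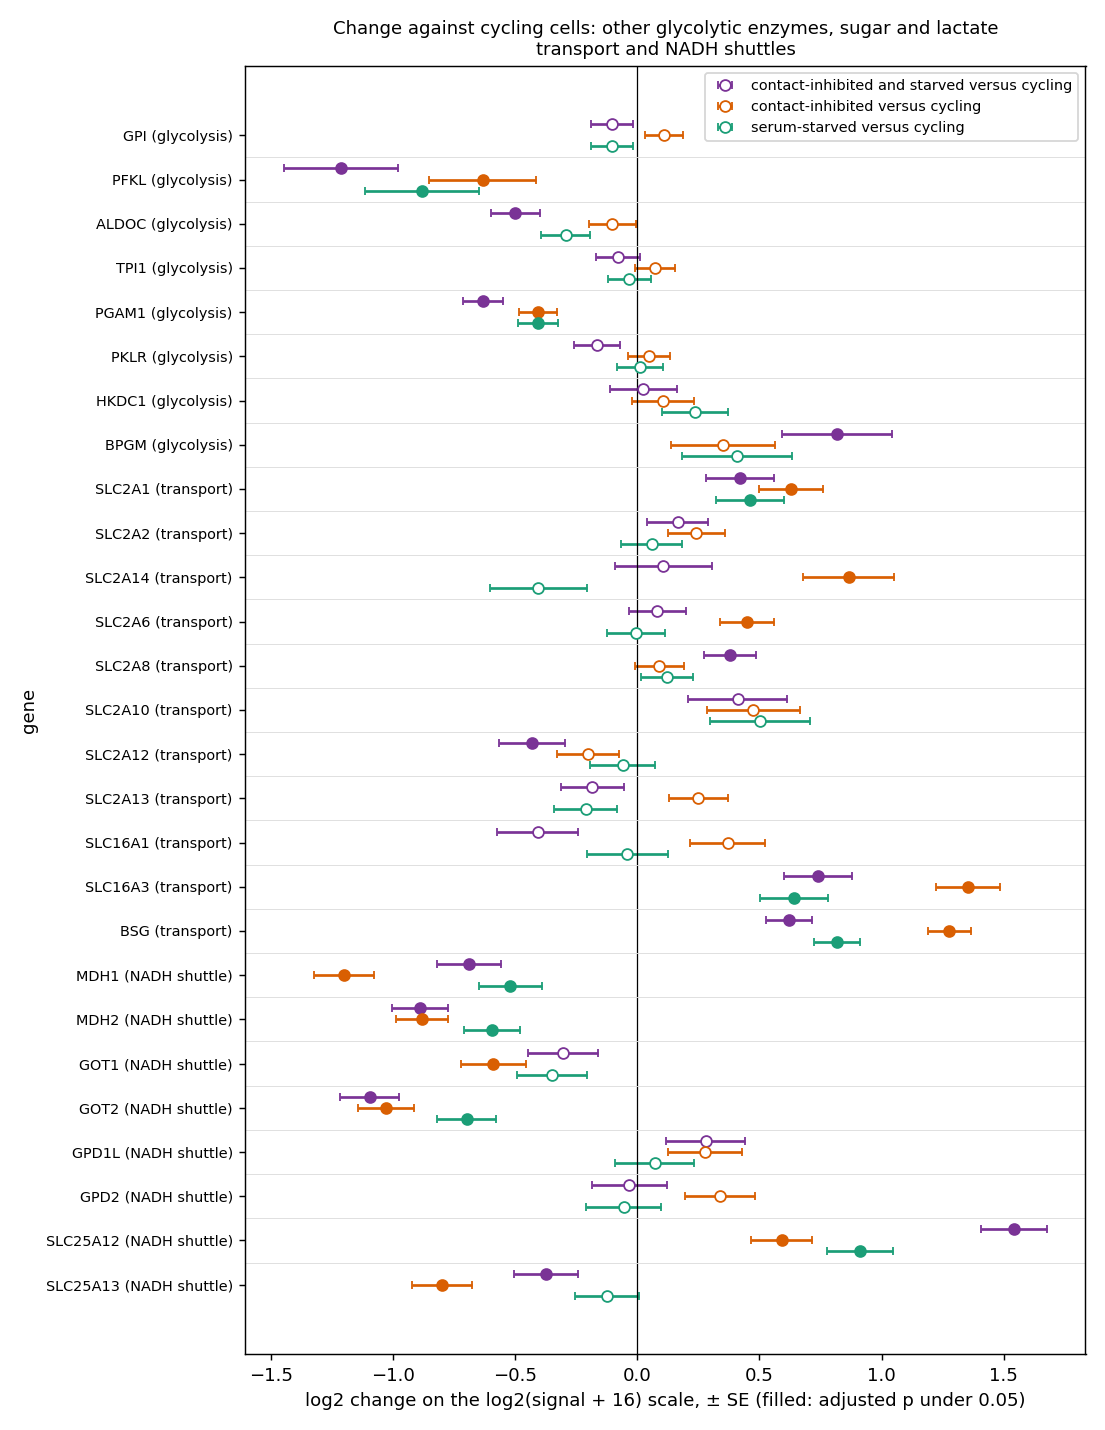
Log2 change ± SE against cycling cells of other glycolytic enzymes, of carriers of glucose and lactate and of genes of the NADH shuttles, by arrested group, filled where the adjusted p was under 0.05. SLC16A3 and BSG lie right of 0 in each group (0.62 to 1.35), and MDH1, MDH2 and GOT2 lie left of 0 in each group (-0.52 to -1.20).

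The malate-aspartate and glycerol phosphate shuttles carry the electrons of cytosolic NADH into mitochondria, the alternative to lactate as an outlet for NADH. Of 8 genes tested, 1 was higher and 4 lower in contact-inhibited and starved cells, 1 higher and 5 lower in contact-inhibited cells and 1 higher and 3 lower in serum-starved cells, with medians of -0.34, -0.69 and -0.24. The shares of all genes were 18.6% higher and 16.1% lower, 18.7% and 21.9%, and 11% and 9.71%. MDH1, the cytosolic malate dehydrogenase, had signals of 2281, 2034 and 2342 in contact-inhibited and starved, 1482, 1511, 1472 and 1745 in contact-inhibited, 2999, 2515 and 2052 in serum-starved and 3593, 3358 and 3795 in cycling arrays. No arrested array reached the cycling range, and the changes were -0.69 ± 0.13, -1.20 ± 0.12 and -0.52 ± 0.13 (adjusted p = 0.00157, 9.13e-06 and 0.0154). The first and the third ended with the W-linked covariate (adjusted p = 0.106 and 0.278), and the third without serum-starved replicate 3 (adjusted p = 0.077). Its mitochondrial partners MDH2 (-0.89, -0.88 and -0.59, each ± 0.11) and GOT2 (-1.09, -1.03 and -0.70, each ± 0.11 or 0.12) were also lower in all 3 groups, although MDH2 in serum-starved cells did not pass in the mean of all its probe sets (adjusted p = 0.129). The tested gene that was higher in each group was SLC25A12, an aspartate-glutamate carrier, at 1.54 ± 0.13, 0.59 ± 0.13 and 0.91 ± 0.13. For contact-inhibited cells SLC25A12 lies outside the rule for named genes and was named after its values were seen. GPD1, also listed and on the array, did not pass the filter and was not tested. Its signals were 0, 92.1, 58.9 and 80.4 in contact-inhibited arrays and 0 to 7.75 in all others. GPD1 too lies outside the rule and was named after its values were seen.

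Among genes of pyruvate entry into mitochondria, 13 were tested, and 3 were higher and 3 lower in contact-inhibited and starved, 3 and 5 in contact-inhibited, and 1 and 2 in serum-starved cells, with medians of -0.22, -0.31 and -0.22. For contact-inhibited and starved and for serum-starved cells these counts are near the shares of all genes (18.6% higher and 16.1% lower, and 11% and 9.71%), and for contact-inhibited cells the shares were 18.7% and 21.9%. MPC2, a subunit of the mitochondrial pyruvate carrier, was lower in all 3 groups, averaging 1444 ± 73, 1692 ± 115 and 1797 ± 208 against 3016 ± 35 in cycling cells (SD, n = 3, 4, 3 and 3; adjusted p = 1e-05, 3.05e-05 and 0.00031). Of 6 tested factors known in mammals to act on glycolytic genes, 1 was higher and 1 lower in contact-inhibited and starved cells. In contact-inhibited cells 3 were higher and 2 lower, and in serum-starved cells 0 were higher and 1 lower. The medians were 0.33, 0.39 and 0.21, and the shares of all genes are those given above for pyruvate entry. EPAS1, another oxygen-regulated subunit of hypoxia factors, passed in all 3 arrested groups and was lower in each, at dim signals of 22.3, 32.0 and 24.3 in contact-inhibited and starved, 0.37, 12.9, 8.63 and 14.9 in contact-inhibited, 24.0, 20.6 and 23.4 in serum-starved and 104.6, 112.2 and 91.3 in cycling arrays. Its changes were -1.49 ± 0.20, -2.27 ± 0.18 and -1.61 ± 0.20 (adjusted p = 0.000105, 1.46e-06 and 0.000106). EPAS1 passed the filter only through the cycling arrays, and every contact-inhibited array lay under the filter signal of 22.7. Its calls as lower were thus favoured by the filter and carry no weight, here or in the counts above. MLXIP, a glucose-sensing factor, was higher in contact-inhibited and starved and in contact-inhibited cells (0.87 ± 0.23 and 0.76 ± 0.22), in neither with the mean of all its probe sets (adjusted p = 0.216 and 0.13). HIF1A, the oxygen-regulated subunit of the hypoxia factor, had signals of 1252, 1285 and 1598 in contact-inhibited and starved, 6715, 3358, 3357 and 3458 in contact-inhibited, 1466, 1404 and 1406 in serum-starved and 1252, 1354 and 1005 in cycling arrays. It was higher in contact-inhibited cells alone among the 3 comparisons with cycling cells, by 1.74 ± 0.21 (adjusted p = 4.1e-05), and lower in contact-inhibited and starved than in contact-inhibited cells by -1.54 ± 0.21 (adjusted p = 0.000248). MYC, which activates growth genes, was lower in contact-inhibited cells, with 392 ± 67 against 1229 ± 317 in cycling cells (SD, n = 4 and 3), a log2 change of -1.59 ± 0.20 (adjusted p = 5.97e-05). MYC averaged 1521 ± 116 in contact-inhibited and starved and 1647 ± 418 in serum-starved cells (SD, n = 3 each). Neither starved group passed against cycling cells, and both were higher than contact-inhibited cells.

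The remaining lists were small. Against cycling cells, 18.6% of all genes were higher and 16.1% lower in contact-inhibited and starved cells. The shares were 18.7% and 21.9% in contact-inhibited cells and 11% and 9.71% in serum-starved cells. Nothing particular to these lists is read from their counts. Of 3 tested regulators of fructose 2,6-bisphosphate, the activator of phosphofructokinase, TIGAR alone passed, lower in contact-inhibited cells (-0.70 ± 0.25, adjusted p = 0.0457), with overlap between the groups; the call ended without any single array other than cycling replicate 3 (adjusted p = 0.0556 to 0.199). In the pentose phosphate pathway, 5 genes were tested, and 1 was higher and 1 lower in contact-inhibited and starved, 3 and 1 in contact-inhibited, and 0 and 1 in serum-starved cells. In gluconeogenesis 1 of 6 was higher (G6PC) in each confluent group, in contact-inhibited cells not without cycling replicate 2 (adjusted p = 0.0508). In serum-starved cells 0 of 6 passed by limma. In glycogen metabolism 1 of 5 was higher (GBE1, the branching enzyme) and 1 lower (UGP2, which makes UDP-glucose) in each arrested group; GBE1 changed by 1.71 ± 0.23, 1.72 ± 0.22 and 1.26 ± 0.23, and UGP2 by -1.11 ± 0.19, -0.50 ± 0.17 and -1.40 ± 0.19. The UGP2 change in contact-inhibited cells ended in the mean of all its probe sets (-0.11, adjusted p = 0.583) and without contact-inhibited replicate 2, 3 or 4, cycling replicate 1 or 2 or contact-inhibited and starved replicate 2 (adjusted p = 0.0502 to 0.144).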

How the data were processed

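RNA of each culture (15 µg, integrity of 9.7 or more per the labels) was labelled with biotin and hybridised to Affymetrix chicken arrays. The deposited table gives 1 linear intensity per probe set and array, which the authors made with Affymetrix Expression Console 1.1 and PLIER, per the submitters' processing notes; which background and scaling options they chose is not given in the sources used here, and nothing was rescaled. The table has 38535 probe sets, of which 37693 carry a chicken ID. After adding 16 and taking log2, probe sets with a mean below the 25th percentile (a signal of 22.7) were dropped and 28270 were tested. The probe set with the highest mean stood for its gene. All 4 groups entered 1 fit in limma 3.58.1 (R 4.3.3; lmFit, eBayes with trend; 9 residual degrees of freedom), with two-sided p-values and Benjamini-Hochberg adjustment over each comparison. Exact permutation tests used scipy 1.17.1 under Python 3.11.15. The fit was first tested on simulated data.

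Named genes are all members, any gene of the lists of glycolytic enzymes, fructose 2,6-bisphosphate regulators and transport, and, from each other list and comparison, at most the 4 genes with the smallest adjusted p. Members, lists and alternatives were chosen with earlier results of these data known, and the W-linked covariate and the omission of 2 arrays at once go back to such results. Symbols are those of the array annotation, with synonyms from RefSeq. The alternatives were centring, quantile normalization, offsets of 1 and 64, eBayes without trend, no filter or one at the median, weights per array, the average over a gene's probe sets, a replicate block, the W-linked level as covariate, a fit of only the compared arrays, and omission of each array or of cycling replicate 3 with contact-inhibited replicate 1. Same-numbered arrays of different groups correlated at -0.293 to 0.382 in their residuals (18 pairs), so the numbers were not used to pair arrays.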

Additional observations from a re-analysis of the deposited data

Results flagged for a closer look

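PFKM in contact-inhibited replicate 1 stood apart from its group, with a signal of 26.3 against 53.0 to 54.6 in the other 3 arrays. Its gap to the nearest array was 0.955 of the group's range, above the limit of Dixon's test for 4 arrays. ENO2 in contact-inhibited replicate 2 stood apart in the other direction, at 2419 against 1560 to 1670, with a gap of 0.845 of the range on the same log2 scale. Chance flags about 1 in 20 such groups, and 9 members were examined in this group.

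The effect of serum removal differed between confluent and growing cultures for 3 members, by the limma interaction. For PFKP the difference was -0.35 (adjusted p = 0.0467), for ENO2 -2.67 (adjusted p = 0.00317) and for LDHB 0.65 (adjusted p = 0.0237), all on the log2 scale as confluent minus growing. The PFKP value is that of its brightest probe set, and its other probe sets gave -0.98 and -1.49 (adjusted p = 0.0268 and 0.0694).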

How the results depend on the processing

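Of the members' counts, those for contact-inhibited against cycling cells, for serum-starved against contact-inhibited cells and for any difference between the 4 groups stayed within 1.5 times their value in each alternative that was run. For contact-inhibited and starved against cycling cells the count was 4, and 1 with the W-linked covariate. For serum-starved against cycling cells it was 2, and 1 with that covariate or with the compared arrays alone; omitting single arrays gave 0 to 3, the 0 being without serum-starved replicate 3. For contact-inhibited and starved against contact-inhibited cells it was 4, and omitting single arrays gave 2 to 4. Against serum-starved cells it was 0, and 1 (LDHB) under quantile normalization, array weights, the W-linked covariate, the compared arrays alone and with cycling replicate 3 and contact-inhibited replicate 1 both left out; omitting single arrays gave 0 to 1. The interaction count was 3, with 5 under quantile normalization, 1 with eBayes without trend, 6 with array weights and 1 to 4 when single arrays were omitted. The shares of all genes that passed in these alternatives are not given beside the counts, so nothing particular to the members is read from the shifts. The cause of these shifts was not tested. As a block the replicate number left the counts at 4, 6 and 2 against cycling cells and at 4, 0 and 4 between arrested groups, gave 2 for the interaction (PFKP ended) and 6 over the 4 groups; of 12 arrays, 4 correlated best with their own number. It also ended SLC2A1 in contact-inhibited and starved and in serum-starved against cycling cells (adjusted p = 0.069 and 0.0754). Against cycling cells it further ended PFKL, TIGAR, UGP2 and MLXIP in contact-inhibited cells (adjusted p = 0.117, 0.0617, 0.0636 and 0.0605). PFKM lay under the filter set at the median.

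Centring arrays lowered the median change of all genes by -0.10, -0.12 and -0.12 in contact-inhibited and starved, contact-inhibited and serum-starved against cycling cells and raised it by 0.14 in the interaction. It lowered the share of higher among called genes to 43.3%, 34.2% and 37.8%, from 53.5%, 46.1% and 53.1% as deposited, and raised it for the interaction to 75.9%, from 62.5%. Quantile normalization gave 44%, 44.4% and 45.6% against cycling cells, 52.7% (64.8% as deposited) for contact-inhibited and starved against contact-inhibited cells and 41.9% (56%) against serum-starved cells.

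Changes of sign arose in values that had not passed, except TALDO1 in contact-inhibited and starved against cycling cells, 0.0094 with the W-linked covariate and -0.56 without. In that comparison HK2 turned to -0.049 (centring), -0.075 (quantile), -0.20 (W-linked) and -0.0014 (both arrays left out; -0.0014 to 0.11 over single omissions), ENO1 to 0.045 (all probe sets), TPI1 to 0.013 (array weights) and HKDC1 to -0.072 (centring), -0.029 (quantile) and -0.11 (weights; -0.027 to 0.12 over omissions). In contact-inhibited against cycling cells centring gave ENO1 -0.071, GPI -0.0046, TPI1 -0.042, PKLR -0.067 and HKDC1 -0.011, and omissions gave PKLR -0.0050 to 0.12. In serum-starved against cycling cells HK1 turned to 0.13 (weights) and 0.079 (both arrays left out; -0.19 to 0.079 over omissions), PFKM to 0.024 and LDHB to 0.081 (W-linked), PFKP to 0.28, ENO1 to 0.027 and GPI to 0.057 (all probe sets), and TPI1 to 0.049 (weights) and 0.013 (both arrays left out; -0.090 to 0.014 over omissions). There PKLR turned to -0.11 (centring) and -0.19 (W-linked, with -0.046 to 0.088 over omissions), and PGK2 ranged from -0.19 to 0.0076 over omissions. In contact-inhibited and starved against contact-inhibited cells PFKM turned to 0.31 (W-linked), GAPDH to 0.011 (centring), 0.019 (weights) and 0.0062 (both arrays left out, with -0.024 to 0.014 over omissions) and LDHA to 0.010 (replicate block) and 0.11 (W-linked, with -0.089 to 0.022 over omissions). Against serum-starved cells ENO1 turned to 0.018 (all probe sets) and LDHA to -0.010 (quantile). In serum-starved against contact-inhibited cells HK2 ranged from -0.22 to 0.011 over omissions and LDHA turned to 0.052 (W-linked). In the interaction PFKM turned to -0.052 (weights) and -0.055 (both arrays left out) and ENO1 to 0.058 (centring).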
